A study of Mus musculus with 18 samples.

Results

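Control lung was compared with control kidney of the mouse across all genes, which describes how the tissues differ in animals without the cyclin E1 transgene. The comparison used 6 of the 18 RNA-seq libraries of the study, taken by their tissue and genotype labels: Lung TA 1 to 3 and Kidney TA 1 to 3. Both groups came from C57BL/6 mice that carried the reverse tetracycline transactivator (rtTA) but no tetracycline-inducible Ccne1 transgene, and these mice are called TA. They had doxycycline from weaning at 3 weeks and were killed at 4 months, so rtTA and doxycycline were common to every library compared. The labels name neither the promoter that drives rtTA, nor the sex of the mice, nor whether a lung and a kidney library with the same number came from the same animal. Nothing in the labels says that the libraries of a group came from separate animals. Levels of Xist, a transcript of the inactive X chromosome given below, set TA 3 apart from the other libraries in each tissue. The libraries of a group were therefore not all repeats of 1 sample, but whether the others came from separate animals was not tested. The p values measure the spread between these libraries, part of which may be technical. RNA was taken from whole tissue, in which fewer cells of a type and less RNA per cell cannot be told apart.

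The lung is built for gas exchange. Thin alveolar type 1 cells lie against capillaries, type 2 cells make surfactant, club and multiciliated cells line the airways, and elastic fibres let the tissue recoil. The kidney filters blood through podocyte-covered glomeruli and then reclaims solutes along the proximal tubule, the thick ascending limb, the distal convoluted tubule and the collecting duct. Proximal tubule cells are packed with mitochondria, burn fatty acids and make glucose.

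Library totals were 20697868 to 43202066 reads in kidney and 41597623 to 80515797 in lung. Reads were found for 17211 ± 282 genes in kidney and 18486 ± 390 in lung (SD, n = 3 per group; exact permutation test, two-sided p = 0.1, the smallest that 3 libraries against 3 can give). Levels are given as CPM, the reads of a gene relative to the TMM-scaled total of its library, and 3 reads over a whole group corresponded to 0.0378 CPM in kidney and 0.0137 CPM in lung. Log2 CPM correlated across genes at 0.964 to 0.974 within kidney and at 0.990 between Lung TA 1 and TA 2. Lung TA 3 stood apart from them at 0.952 to 0.960. Xist, the transcript of the inactive X chromosome, was at 1185, 1346 and 3.0 CPM in Kidney TA 1, 2 and 3 and at 619, 652 and 0.326 CPM in Lung TA 1, 2 and 3, so in each tissue it was high in 2 libraries and low in 1.

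Lung TA 3 carried transcripts of stratified squamous epithelium, a tissue of the upper airway and oesophagus that was not part of the lists at first and was added after the values had been seen. The 24 genes of that list summed to 5643 CPM in Lung TA 3 and to 209 to 229 CPM in the other lung libraries, against 165 to 247 CPM in kidney. Krt13, a keratin of such epithelia, was at 5.39, 1.4 and 1936 CPM in the lung libraries and had no read in kidney, which made it at least 17112 fold higher in lung against the kidney floor, a difference that was not called (edgeR adjusted p = 0.105). Without Lung TA 3 it was at least 89.8 fold higher and was called (edgeR adjusted p = 0.00308). Without Lung TA 3, 10082 genes were called. Heart muscle genes were present in all 3 lung libraries, with a sum of 557 to 1216 CPM over 9 genes against 10.6 to 14.6 CPM in kidney. Skeletal muscle genes summed to 504 CPM in Lung TA 1, 11.96 CPM in TA 2 and 1506 CPM in TA 3, against 4.76 to 13.9 CPM in kidney. Liver genes summed to 396, 621 and 2227 CPM in the lung libraries and to 317 to 436 CPM in kidney. The plot of summed marker lists shows these libraries side by side.

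**Figure D1:**
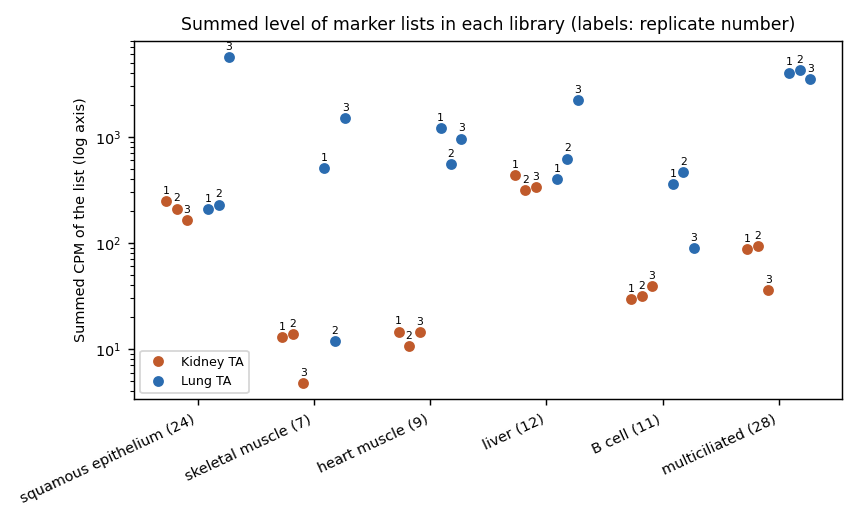
Summed CPM of marker lists in each library on a log axis, with the number of genes in brackets, kidney in orange, lung in blue and the replicate number above each point. Lung TA 3 is high in the squamous, skeletal muscle and liver lists and low in the B cell list, while the multiciliated list is at 3509 to 4233 CPM in all 3 lung libraries.

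Of 16444 tested genes, 10063 differed between the tissues at an edgeR adjusted p under 0.05, which is 61.2% of those tested. There were 5336 genes higher in lung (32.4%) and 4727 higher in kidney (28.7%), and the median log2 fold change of lung minus kidney over all tested genes was 0.07. With a fold of at least 2 added to the rule, 4091 genes were higher in lung (24.9%) and 3326 in kidney (20.2%), together 45.1% of the tested genes. The libraries of the 2 groups did not overlap for 11496 genes (69.9%). Genes called at least 16-fold apart were picked by their fold in these same libraries, so a low share of reads in the other tissue follows from the rule. The 645 genes called at least 16-fold higher in kidney took 20.4% to 22.9% of all kidney reads and 0.310% to 0.393% of lung reads. The 856 genes called at least 16-fold higher in lung took 14.8% to 19.6% of lung reads and 0.079% to 0.121% of kidney reads. When libraries were scaled by their totals alone, without TMM, 64.7% of the calls were higher in lung in place of 53.0%, and the median over all genes was 0.36. Offsets for transcript length and GC content gave 45.1% and a median of -0.11.

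**Figure D2:**
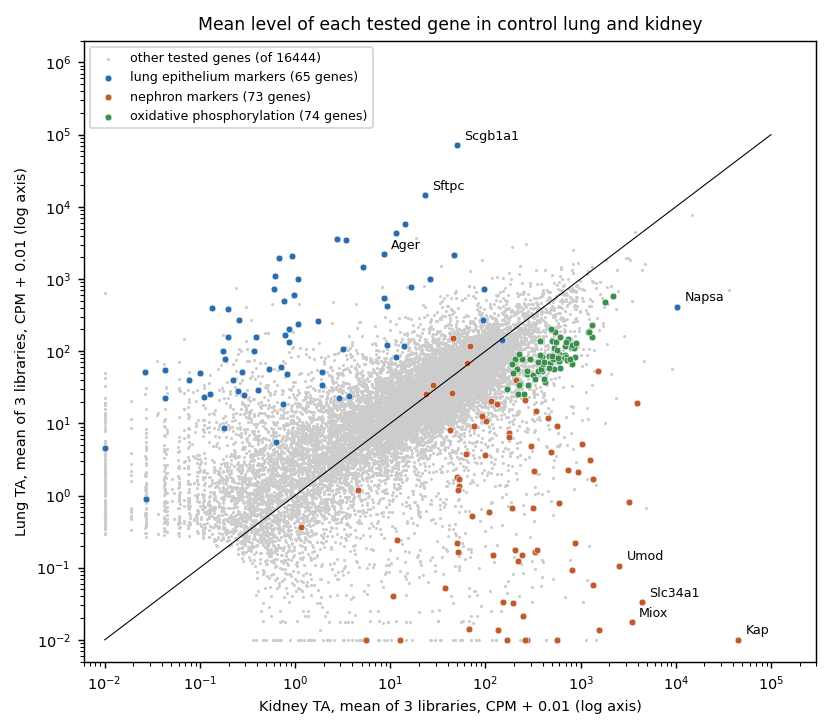
Mean CPM plus 0.01 of each of the 16444 tested genes in Kidney TA (x axis) and Lung TA (y axis), n = 3 libraries each, both axes logarithmic, with the line of equal levels. Most markers of lung epithelium lie above the line and most markers of nephron segments below it, and Napsa is the lung marker furthest below the line.

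Surfactant and type 2 cell genes were higher in lung with 1 exception, and most were low in kidney. Of 12 type 2 markers, 11 were higher in lung and 1 was higher in kidney, with a median log2 fold change of 9.29 against 0.07 over all genes. Sftpc, which encodes surfactant protein C (chr14:70520949-70524081 of mm10), was at 12753, 16818 and 13524 CPM in lung and at 45.7, 12.9 and 10.3 CPM in kidney. Its fold of means was 626, with a log2 difference of 9.29 ± 0.77 (SE, edgeR adjusted p = 2.63e-05). Every lung library was far above every kidney library. Sftpb, the surfactant protein needed for a stable surface film, was at 2954, 3575 and 4292 CPM in lung and 4.18, 2.29 and 1.77 CPM in kidney. Lamp3, a protein of the lamellar bodies that store surfactant, was at 402 ± 107 CPM in lung and 0.125 ± 0.0243 CPM in kidney, a fold of 3221 (SD, n = 3). Cxcl15, a chemokine known as lungkine, differed by 1856 fold.

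The exception was Napsa, the aspartic protease napsin A that trims surfactant protein B in lung. It stood at 13564, 11089 and 6335 CPM in kidney and at 360, 461 and 410 CPM in lung, so all kidney libraries were above all lung libraries. The fold was 25.2 in favour of kidney, with a log2 difference of -4.65 ± 0.37 (edgeR adjusted p = 2.27e-05). Napsin A is also known from proximal tubule cells. In the libraries with the transgene the log2 fold change of Napsa was -4.64.

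Markers of the thin type 1 cells were all higher in lung, 12 of 12, with a median log2 fold change of 6.41. Ager, the receptor for advanced glycation end products on their basal membrane, was at 2140, 2284 and 2162 CPM in lung and 13.3, 4.9 and 7.47 CPM in kidney. Hopx, a homeodomain regulator, was at 842, 754 and 692 CPM in lung and 18.9, 16.1 and 14.8 CPM in kidney. The lung libraries were close together for both genes. The smallest log2 fold changes of the list were those of Pdpn, at 2.86 ± 0.17, and Clic5, a chloride channel family member also found in podocytes, at 2.92 ± 0.29. Clic5 was at 726 ± 235 CPM in lung and 95.8 ± 15.9 CPM in kidney.

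Airway secretory genes held the gene with the most lung reads. Scgb1a1, the secretoglobin of club cells (chr19:9083636-9087958), was at 81354, 87473 and 44286 CPM in lung and at 89.4, 32.5 and 29.2 CPM in kidney, a fold of 1411. Of 13 club and secretory markers 12 were higher in lung, with a median of 10.13, or 8.65 with the gene without a kidney read at its bound. Bpifa1, an airway surface protein, was at 1940 ± 481 CPM in lung and 0.67 ± 0.166 CPM in kidney. Cbr2, a carbonyl reductase of lung mitochondria, stood at 5792 ± 773 CPM against 14.4 ± 4.94 CPM. Pigr, the receptor that carries immunoglobulins through epithelia, was not called, with 134, 163 and 130 CPM in lung and 33, 33.9 and 379 CPM in kidney. Kidney TA 3, the kidney library with low Xist, was the highest of the 6 and the other kidney libraries were the lowest, and without Kidney TA 3 the log2 fold change was 2.09 (edgeR adjusted p = 2.48e-04). In kidney Scgb1a1 had 3678 reads and Sftpc 1643, both with the highest CPM in Kidney TA 1, while Kap, the gene with the most kidney reads by mean CPM, had 0 reads in lung.

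All 28 markers of multiciliated cells were higher in lung, with a median log2 fold change of 6.63. Foxj1, the transcription factor that drives the motile cilium programme, was at 230, 260 and 117 CPM in lung and 1.07, 0.73 and 0.786 CPM in kidney. Lung TA 3 was the lowest of the lung libraries for it. Dnah5, an outer arm dynein heavy chain, was at 99.3 ± 23.3 CPM in lung and 0.362 ± 0.317 CPM in kidney. Of 11 tested genes named Dnah, 9 were higher in lung and 0 in kidney. Genes for primary cilia and cystic kidney disease did not share this: of 15, 2 were higher in lung (13.3%, against 32.4% of all genes). Of the others, 5 were higher in kidney (33.3%, near the 28.7% of all genes) and 8 were not called. Without Lung TA 3 4 were higher in lung. Pkhd1, the fibrocystin gene of recessive polycystic kidney disease, was the furthest toward kidney, at 116 ± 8.26 CPM against 0.787 ± 0.357 CPM in lung.

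**Figure D3:**
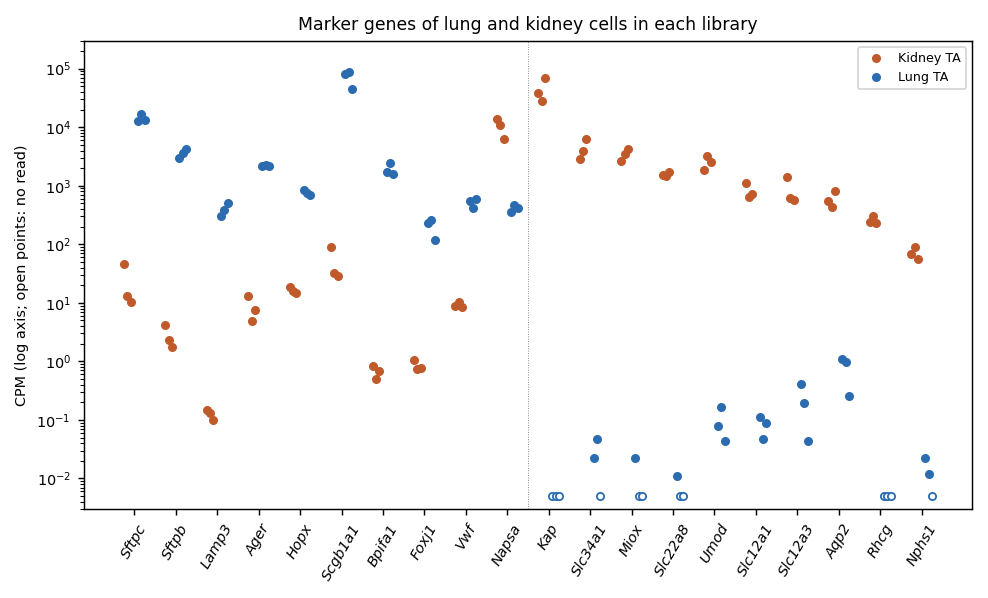
CPM of marker genes in each library on a log axis, kidney in orange and lung in blue, with open points at the bottom for libraries without a read (n = 3 per tissue). The first 9 genes are higher in every lung library, and Napsa and the 10 kidney markers to the right of the dotted line are higher in every kidney library.

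Endothelial transcripts were higher in lung as a group. Of 22 markers shared by most endothelia, 18 were higher in lung and 1 in kidney, with a median of 2.36. Pecam1, a junction protein, was at 788, 628 and 900 CPM in lung and 77.2, 80.6 and 71.7 CPM in kidney. Vwf, the von Willebrand factor, was at 526 ± 95.1 CPM against 9.18 ± 0.984 CPM, a fold of 57.3. Emcn, a sialomucin of capillary and venous endothelium, went the other way, with 127, 149 and 164 CPM in kidney, against 63.8, 59 and 49.7 CPM in lung (log2 fold change -1.35 ± 0.17, edgeR adjusted p = 2.55e-04). Plvap, which forms the diaphragms of fenestrated capillaries, was not called at 448 ± 97.5 CPM in lung and 319 ± 35.8 CPM in kidney, and was called without Lung TA 2 (edgeR adjusted p = 0.0496). Genes known from lung capillaries were higher in lung in 13 of 14 cases. Epas1, the hypoxia-inducible factor 2 alpha, was among the most abundant genes called higher in lung, by CPM, with 2753 ± 357 against 191 ± 50.7 CPM. Lyve1, a receptor of lymphatic vessels and some macrophages, differed by 408 fold.

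Genes of the stretchable matrix were higher in lung. Of 17 elastic fibre genes 14 were higher in lung and 1 in kidney, with a median of 2.06. Eln, which encodes elastin, was at 248, 261 and 330 CPM in lung and 39.9, 28.7 and 30.3 CPM in kidney. Mfap4, a microfibril protein, had the largest fold of the list at 52.4. Fbln5, which tethers elastin to cells, was the member higher in kidney, at 194 ± 12.6 CPM against 118 ± 4.61 CPM. All 10 smooth muscle genes were higher in lung, with a median of 2.81. The interstitial collagens were split into 10 higher in lung (58.8%, against 32.4% of all genes), 2 higher in kidney (11.8%, against 28.7%) and 5 not called. Leaving out Lung TA 1 or Lung TA 2 left 1 collagen higher in kidney. Basement membrane genes had 10 of 22 higher in lung (45.5%, against 32.4% of all genes) and 6 higher in kidney (27.3%, near the 28.7% of all genes). The number higher in kidney fell to 2 or 3 without any 1 of the 6 libraries other than Lung TA 3. Col18a1, a collagen of epithelial and vascular basement membranes, was at 261 ± 4.95 CPM in kidney, against 51.9 ± 24.9 CPM in lung.

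Genes of immune cells were higher in lung. All 11 MHC class II genes were, with a median of 1.54, and so were 16 of 17 T and NK cell genes, 9 of 11 B cell genes and all 9 tested neutrophil genes. The MHC class II count was 5 in a fit of all 12 lung and kidney libraries and 4 in the CCNE-TA libraries. Chil3, a chitinase-like protein of alveolar macrophages, was at 477, 461 and 423 CPM in lung and 0.778, 0.73 and 0.196 CPM in kidney. Lyz2, the lysozyme of macrophages that type 2 cells also make, was at 3651 ± 1190 CPM against 18.5 ± 6.17 CPM. General macrophage genes were less one-sided, with 6 of 12 higher in lung (50%, against 32.4% of all genes), 1 in kidney (8.3%, against 28.7%) and 5 not called. The share called in either direction, 58.3%, was near the 61.2% of all genes. Csf1r, the receptor for the macrophage growth factor, was the member higher in kidney, at 137 ± 19.4 CPM against 86.6 ± 9.47 CPM (log2 fold change -0.66 ± 0.17, edgeR adjusted p = 0.0101). This call was lost without Lung TA 1 (edgeR adjusted p = 0.0583), and in the CCNE-TA libraries the log2 fold change was 0.01. Igj, the joining chain of plasma cells, was at 220, 258 and 27.4 CPM in lung, lowest in Lung TA 3, and at 11.6, 15 and 18.4 CPM in kidney.

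Proximal tubule genes were higher in kidney in 26 of 26 cases, with a median log2 fold change of -8.80. Kap, the kidney androgen-regulated protein (chr6:133849851-133853762), was at 38174, 27788 and 69306 CPM in kidney and had no read in lung. This made it at least 3280700 fold higher in kidney, against a floor of 3 reads over the lung libraries (edgeR adjusted p = 9.38e-06). Miox, which opens inositol to glucuronate, was at 2691, 3460 and 4213 CPM in kidney and had 2 reads in all of lung, a ratio of 461210 with a counting interval of 104360 to 3112900. Slc22a8, the organic anion transporter OAT3, was at 1503, 1496 and 1700 CPM in kidney and had 1 read in lung, a ratio of 418150 (60726 to 13364000). These intervals are 95% for independent reads and cover counting error only. Reads here were not independent, as described with the processing, so the intervals may be too narrow. Lrp2, the endocytic receptor megalin, was present in lung too, at 44.7, 56.4 and 60.5 CPM against 1167, 1818 and 1629 CPM in kidney. Acsm2, a medium-chain acyl-CoA synthetase, varied within kidney, at 393, 1010 and 2647 CPM.

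The loop and distal segments were as one-sided. All 12 thick ascending limb genes were higher in kidney, with a median of -9.72, or -9.33 with the gene without a lung read at its bound. Umod, which encodes uromodulin, was at 1858, 3263 and 2539 CPM in kidney, against 0.0787, 0.168 and 0.0435 CPM in lung. Slc12a1, the target of loop diuretics, was at 821 ± 252 CPM against 0.0825 ± 0.0324 CPM. In the distal convoluted and connecting tubule list, 9 of 10 were higher in kidney, with a median of -7.82, or -6.59 with bounds. Slc12a3, the thiazide-sensitive cotransporter, was at 1396, 623 and 581 CPM in kidney, highest in Kidney TA 1, and at 0.213 ± 0.181 CPM in lung. Trpm6, the magnesium channel of this segment, was not called, with 43.9, 19.6 and 20.7 CPM in kidney, against 30.6, 38.3 and 32.2 CPM in lung, and without Kidney TA 1 it was called higher in lung (edgeR adjusted p = 0.00945). Intercalated cell genes had 14 of 15 higher in kidney, among them Rhcg, an ammonia channel, at 258 ± 35.8 CPM with no lung read. Of the 20 tested subunits of the vacuolar proton pump 17 were higher in kidney and 0 in lung.

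Among principal cell genes 2 subunits of the epithelial sodium channel were set apart. The list holds only its beta and gamma subunits, so the whole channel is not described. Aqp2, the vasopressin-regulated water channel, was at 539, 435 and 806 CPM in kidney, against 1.09, 0.96 and 0.261 CPM in lung, and 7 of 10 genes were higher in kidney. Scnn1g, the gamma subunit of the sodium channel, was at 142, 144 and 178 CPM in lung and 41.8, 54.7 and 41.8 CPM in kidney. Its log2 fold change was 1.74 ± 0.18 (edgeR adjusted p = 8.78e-05). Scnn1b, the beta subunit, was at 115, 116 and 122 CPM in lung and 66.6, 70.8 and 70.3 CPM in kidney, with a log2 difference of 0.76 ± 0.13 (edgeR adjusted p = 0.00148), which was 0.58 and not called in the CCNE-TA libraries. The lung and kidney libraries did not overlap for either subunit. Alveolar and airway cells are known to clear fluid through this channel.

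Podocyte genes were mixed. Of 12, 6 were higher in kidney (50%, against 28.7% of all genes), 1 in lung (8.3%, against 32.4%) and 5 were not called. The share called in either direction, 58.3%, was near the 61.2% of all genes. Nphs1, which builds the slit diaphragm, was at 71.3 ± 17 CPM in kidney and at 0.0115 ± 0.0112 CPM in lung. Podxl, which also coats endothelium, was at 292 ± 81.9 CPM in kidney, against 401 ± 132 CPM in lung and was not called. Plce1, a phospholipase C of podocytes, was the member higher in lung, at 36.5 ± 11.2 CPM against 10.9 ± 2.57 CPM.

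**Figure D4:**
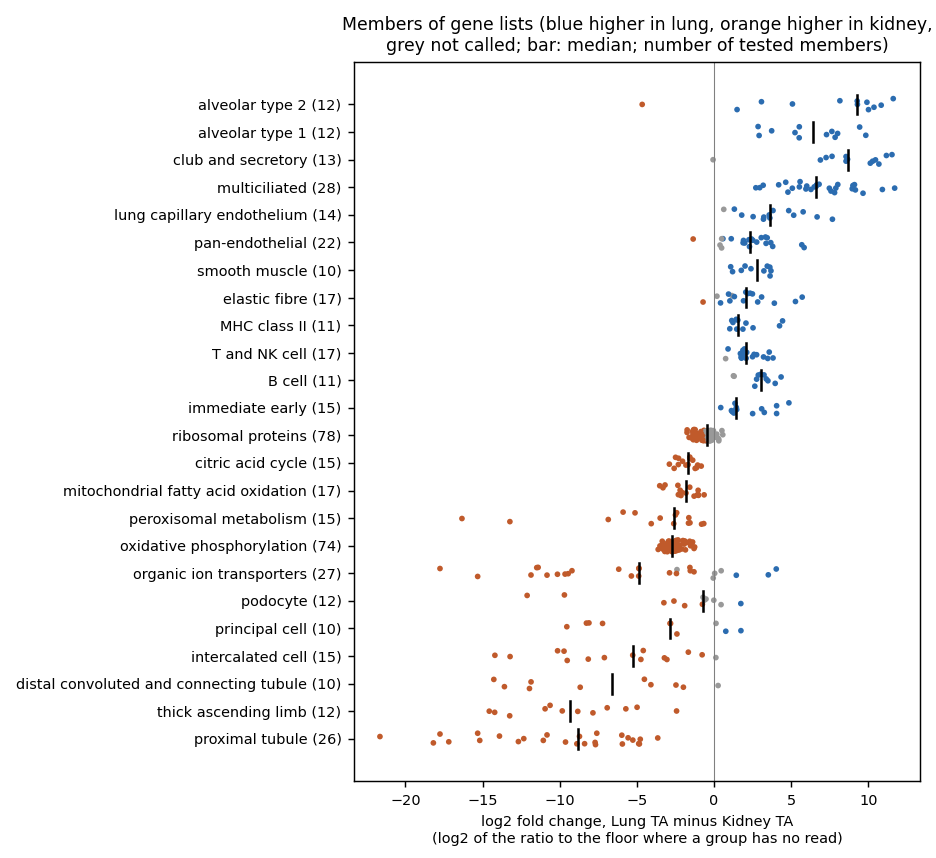
Log2 fold change of lung minus kidney (x axis) for the tested members of 24 gene lists, blue when called higher in lung, orange when called higher in kidney and grey when not called, with a bar at the median. Genes without a read in a tissue are drawn at their bound, and medians run from 9.29 for type 2 cells to -9.33 for the thick ascending limb.

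Transporter families were divided between the tissues, often gene by gene. Of 312 tested solute carriers, 155 were higher in kidney (49.7%, against 28.7% of all genes) and 66 in lung (21.2%, against 32.4%). The sodium-phosphate cotransporters were the clearest pair. Slc34a1, the renal form that reclaims filtered phosphate, was at 2899, 3957 and 6386 CPM in kidney, against 0.0225, 0.048 and 0 CPM in lung. Slc34a2, the form that takes up phosphate in type 2 cells, was at 6.32, 5.42 and 3.59 CPM in kidney, against 961, 1160 and 2260 CPM in lung. Per length of transcript, Slc34a1 reached 944 RPKM in kidney and Slc34a2 291 RPKM in lung. Of 17 genes for calcium, phosphate and vitamin D, 13 were higher in kidney and 3 in lung. Of 27 organic ion transporters 20 were higher in kidney, and Slco2a1, the prostaglandin transporter, was among the 3 higher in lung at 403 ± 93.6 CPM against 35.2 ± 8.68 CPM.

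Water channels had a tissue pattern of their own. Per length of transcript the kidney order was Aqp2 at 418 RPKM, Aqp1 at 352, Aqp3 at 50.1, Aqp6 at 27.8 and Aqp4 at 21.2. In lung it was Aqp1 at 312 RPKM and Aqp5 at 101, with Aqp3 at 6.97 and Aqp4 at 3.01. Aqp1, the channel of proximal tubule and of endothelium, was at 603, 1109 and 1060 CPM in kidney, against 742, 550 and 1170 CPM in lung, and the groups overlapped. Its log2 fold change was -0.17 ± 0.34 (edgeR adjusted p = 0.684). Aqp5, the channel of type 1 cells and airway glands, was at 233, 277 and 280 CPM in lung and 3.16, 0.861 and 1.18 CPM in kidney. Of 10 tested aquaporins, 6 were higher in kidney and 2 in lung.

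Claudins, which set the permeability of tight junctions, had 9 of 19 members higher in kidney (47.4%, against 28.7% of all genes) and 7 in lung (36.8%, against 32.4%). Cldn18, the claudin of alveolar epithelium, was at 469, 441 and 586 CPM in lung and 1.12, 0.287 and 0.884 CPM in kidney. Cldn5, the claudin of endothelium, was at 423 ± 8.69 CPM in lung and 40.9 ± 3.43 CPM in kidney. Cldn2, which makes the proximal tubule leaky to cations, was at 123, 291 and 231 CPM in kidney, against 2.74, 3.19 and 4.35 CPM in lung. Cldn16, needed for magnesium recovery in the thick ascending limb, had no lung read and was at least 912 fold higher in kidney.

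The renin-angiotensin system was distributed over both tissues. Agt, the precursor angiotensinogen, was at 187, 171 and 189 CPM in kidney, against 2.58, 3.08 and 16.2 CPM in lung, where Lung TA 3 was the highest. Ace, the converting enzyme on lung capillaries, was at 1120, 826 and 1195 CPM in lung and 130, 210 and 123 CPM in kidney, with a log2 difference of 2.76 ± 0.29 (edgeR adjusted p = 8.39e-05). Agtr1a, the main receptor, was at 53.6, 54.9 and 54 CPM in kidney, against 20.8, 19.3 and 20.3 CPM in lung. Liver genes, of which Agt is a known one, were also highest in Lung TA 3 among the lung libraries, and their part in its value there was not tested. Ren1 and Ren2, the renin genes, were listed at 0 in all 18 libraries of the study, as were 6 alpha and beta globin genes, Rpl26 and Ndufs5. Several of these have near-identical copies in the genome, and how reads with several alignments were counted is not given in the sources used here, so these symbols were not compared.

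Regulators of organ identity were mostly higher in the tissue they are known for. Of 24 lung transcription factors 21 were higher in lung and 1, the epithelial factor Ehf, in kidney. Ehf had an edgeR adjusted p of 0.0446 and overlapping libraries, and its call was lost without any 1 of 4 libraries (Kidney TA 1, Kidney TA 2, Lung TA 1 or Lung TA 2). Nkx2-1, which specifies lung and thyroid epithelium, was at 178, 215 and 148 CPM in lung and 0.778, 0.365 and 0.295 CPM in kidney. Foxf1, a factor of lung mesenchyme and endothelium, was at 186 ± 8.95 CPM against 0.941 ± 0.319 CPM. Tbx4, a factor of lung mesenchyme, was at 65.5 ± 4.28 CPM in lung and had 2 reads in kidney, a ratio of 2022 with a counting interval of 709 to 21155. Of 28 kidney factors 22 were higher in kidney, with a median of -5.75. Pax8, which maintains tubule identity, was at 192, 120 and 122 CPM in kidney and had 4 reads in lung. Emx1, Emx2, Lhx1, Pax2 and Tfap2b had none.

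Hnf4a, the nuclear receptor of proximal tubule and liver, was at 511, 579 and 614 CPM in kidney, against 2.35, 4.26 and 20.7 CPM in lung, highest in Lung TA 3 along with the liver list. The part of liver in its lung values was not tested. Eya1, Osr1 and Irx1, which act in the kidney of the embryo, were among the 4 of the list that were higher in lung. Irx1 was at 78.5 ± 23.6 CPM in lung and 28.6 ± 6.06 CPM in kidney.

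Hox genes, which record position along the body axis, differed by their place in the clusters. Of 30 tested Hox genes, 24 were higher in kidney, 0 in lung and 6 were not called, with a median of -5.44. The genes were also divided by paralog number, a division made after the values had been seen. For paralogs 6 to 13, all 17 tested genes were higher in kidney, and together they summed to 634 to 752 CPM in kidney, against 7.84 to 10.4 CPM in lung. For paralogs 1 to 5, 7 of 13 were higher in kidney, and the sums were 235 to 459 CPM in kidney, against 98.0 to 116 CPM in lung. Hoxa5, a gene known to be needed for lung development, was at 36.1, 33.7 and 33 CPM in lung and 34.8, 17.1 and 18.5 CPM in kidney and was not called, while without Kidney TA 1 it was called higher in lung (edgeR adjusted p = 0.00206).

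In cluster B the lung level per length of transcript stepped down from Hoxb5 to Hoxb9, at 4.64 RPKM for Hoxb4, 5.3 for Hoxb5, 1.71 for Hoxb6, 0.627 for Hoxb7, 0.0809 for Hoxb8 and 0.0163 for Hoxb9. The matching lung means with their spread were 11.9 ± 4.65 CPM for Hoxb4, 14.8 ± 2.34 for Hoxb5, 3.36 ± 0.232 for Hoxb6, 0.968 ± 0.214 for Hoxb7, 0.213 ± 0.039 for Hoxb8 and 0.042 ± 0.0188 for Hoxb9 (SD, n = 3). In kidney the same genes lay between 8.18 RPKM for Hoxb5 and 43.2 RPKM for Hoxb6. The Hoxb4 tissue call was lost without Kidney TA 1, Lung TA 1 or Lung TA 3 (edgeR adjusted p from 0.0584 to 0.0769). Hoxa10, known from the urogenital tract, was at 76.7, 70.3 and 63.6 CPM in kidney with no lung read, at least 5106 fold higher. Hoxa11, Hoxc9, Hoxc10 and Hoxd11 also had no lung read. Cluster D was low in lung at low paralog numbers too, since Hoxd3 was at 52.4 ± 29.2 CPM in kidney, against 0.136 ± 0.00858 CPM in lung and Hoxd4 at 47.4 ± 15.4 and 0.297 ± 0.22 CPM. Hoxd8 was at 138, 177 and 162 CPM in kidney and at 1.39, 0.828 and 1.87 CPM in lung.

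**Figure D5:**
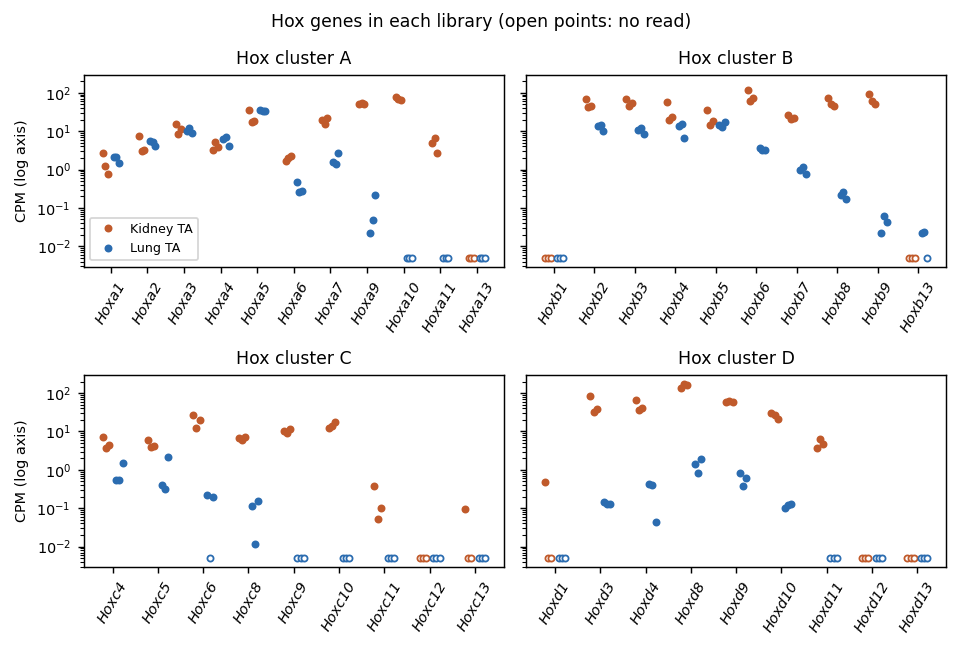
CPM of the Hox genes of clusters A to D in each library on a log axis, kidney in orange and lung in blue, with open points for libraries without a read (n = 3 per tissue). The 17 tested genes with paralog numbers from 6 upward are lower in every lung library than in any kidney library, and CPM, which is not adjusted for length, does not rank the genes.

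The HNF1 factors bind a palindrome that begins with GTTAATNAT, where N is any base. These letters were looked for on both strands of the 250 bases before the start of each gene, in RefSeq promoter windows of build GRCm38.p6, and no match overlapped one of the NRF1 or forkhead letters described with them. A window was found for 12193 of the 16444 tested genes. The letters were present in 26 of 1251 genes called at least 4-fold higher in kidney (2.08%), in 11 of 1667 called at least 4-fold higher in lung (0.660%) and in 27 of 4718 not called (0.572%). They were in 0.673% of all tested genes with a window and in 0.737% of all 32851 windows. A gene counted if any of its windows held the letters, so shares of genes and of windows are unlike measures, here and below. The shares are descriptions and were not tested. Among the 26 were Pcbd1, a cofactor that lets HNF1 proteins dimerize, G6pc, the last enzyme of glucose release, and Pkhd1. None of the 23 proximal tubule markers with a window held the letters there. These 3 windows were chosen after their values were seen and are shown because the genes belong to tubule functions described here. Pcbd1 was at 428 ± 62.5 CPM in kidney, against 14 ± 1.53 CPM in lung, and G6pc at 285 ± 207 and 3.44 ± 3.16 CPM. Capitals mark the match, and each sequence runs 5′ to 3′ toward the gene start.
Pcbd1, chr10:61089081-61089330, plus strand: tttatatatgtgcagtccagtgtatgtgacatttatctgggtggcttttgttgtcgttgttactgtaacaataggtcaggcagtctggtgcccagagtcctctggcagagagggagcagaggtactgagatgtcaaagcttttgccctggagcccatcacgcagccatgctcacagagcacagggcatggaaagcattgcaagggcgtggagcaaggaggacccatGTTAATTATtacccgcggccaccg
G6pc, chr11:101367466-101367715, plus strand: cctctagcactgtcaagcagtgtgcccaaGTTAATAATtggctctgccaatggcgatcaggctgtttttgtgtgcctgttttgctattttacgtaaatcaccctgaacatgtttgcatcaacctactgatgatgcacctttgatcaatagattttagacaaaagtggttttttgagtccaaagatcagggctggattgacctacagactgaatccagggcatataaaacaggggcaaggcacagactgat
Pkhd1, chr1:20618058-20618307, minus strand: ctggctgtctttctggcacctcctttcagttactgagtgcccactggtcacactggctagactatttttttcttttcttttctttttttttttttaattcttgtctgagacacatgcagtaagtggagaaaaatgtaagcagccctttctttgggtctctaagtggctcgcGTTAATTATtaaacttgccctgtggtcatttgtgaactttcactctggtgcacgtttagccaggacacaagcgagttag

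The forkhead letters TGTTTAC, to which FOXA and other forkhead factors bind, were in 65 of 1667 genes at least 4-fold higher in lung (3.90%), in 53 of 1251 at least 4-fold higher in kidney (4.24%) and in 3.17% of all windows. Of all tested genes with a window 2.86% held them, and of genes not called 2.37%. The shares of the tissues were close to each other and above these shares, which was not tested. Of 9 type 2 markers with a window, Etv5 and Lamp3 held them. The Lamp3 window is shown because Lamp3 had the largest fold of the type 2 list.
Lamp3, chr16:19706366-19706615, minus strand: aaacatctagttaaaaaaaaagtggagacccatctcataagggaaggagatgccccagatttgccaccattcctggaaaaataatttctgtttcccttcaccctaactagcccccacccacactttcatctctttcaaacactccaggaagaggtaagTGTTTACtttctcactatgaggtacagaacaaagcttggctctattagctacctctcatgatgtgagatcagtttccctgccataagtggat

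All tested genes of the oxidative phosphorylation list, which holds nuclear subunits of the respiratory chain and ATP synthase, were higher in kidney, 74 of 74, with log2 fold changes from -3.62 to -1.25 and a median of -2.70. Atp5b, the catalytic subunit of ATP synthase, was at 1196, 2874 and 2526 CPM in kidney, against 514, 477 and 742 CPM in lung. Cox4i1, a subunit of cytochrome c oxidase, was at 972, 1527 and 1493 CPM in kidney, against 253, 237 and 205 CPM in lung. The groups did not overlap for either gene. The citric acid cycle was higher in kidney in 15 of 15 genes (median -1.68), mitochondrial fatty acid oxidation in 17 of 17 (-1.82) and peroxisomal metabolism in 15 of 15 (-2.61). Of 77 mitochondrial ribosomal protein genes 74 were higher in kidney and 0 in lung, with a median of -1.50. Acadm, the medium-chain acyl-CoA dehydrogenase, was at 1229 ± 395 CPM in kidney, against 107 ± 4.56 CPM in lung. Hao2, a peroxisomal hydroxyacid oxidase, had no lung read and 1134 ± 379 CPM in kidney.

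The list leaves out 7 isoforms and relatives of these subunits, which did not all share its direction and were looked up after the values of the list had been seen. Of these 3 were higher in lung, 1 in kidney and 3 were not called. Cox4i2, the lung isoform of the subunit encoded by Cox4i1, was at 50.1 ± 10.6 CPM in lung and 2.73 ± 0.996 CPM in kidney (SD, n = 3), with a log2 difference of 4.20 ± 0.32 (SE, edgeR adjusted p = 1.7e-05). Cox4i2 is also in the list of genes of pericytes, the mural cells of capillaries. Of the 9 genes of that list 5 were higher in lung (55.6%, against 32.4% of all genes) and 1 in kidney (11.1%, against 28.7%). The part of pericytes in the value of Cox4i2 was not tested. Cox6a2, an isoform of heart and skeletal muscle, was at 27.0 ± 7.92 CPM in lung and 2.17 ± 0.308 CPM in kidney. The sum of the heart muscle genes was also higher in every lung library than in kidney, and their part in the value of Cox6a2 was not tested. Ndufa4l2, a relative of a respiratory chain subunit, was at 32.2 ± 2.07 CPM in lung and 8.59 ± 0.43 CPM in kidney. Cox7a1 was higher in kidney, at 54.0 ± 5.28 CPM against 17.0 ± 6.79 CPM, and Cox6b2, Cox7a2l and Cox8b were not called. Cox7a1 and Cox8b are also in the list of brown fat genes, and the part of fat in their values was not tested.

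Transcript length moved with the tissue difference and is given here because these genes are short. Genes under 1000 bases had a median log2 fold change of -0.72 and genes over 8000 bases one of 0.40. Within lung, TA 3 was low for the short genes, with a median deviation from the lung mean of -0.33 on the log2 scale. With length and GC offsets in the fit, the oxidative phosphorylation median was -2.52 and 74 of 74 genes were higher in kidney. Cytosolic ribosomal protein genes, which are short as well, had a median of -0.48, with 33 of 78 higher in kidney and 0 in lung. With the offsets their median was -0.45, with 0 higher in lung and 32 in kidney, and scaled by library totals alone it was -0.17, with 3 higher in lung and 25 in kidney.

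The letters GCGCANGCG, most of the site of the nuclear respiratory factor NRF1, were in 13 of 61 tested oxidative phosphorylation genes with a window (21.3%), in 10.6% of all tested genes with one and in 5.16% of all windows. They were in 6.64% of genes called at least 4-fold higher in kidney and in 11.8% of genes not called. In marker lists that were higher in lung they were in 2 of 9 type 2 markers (22.2%) and 4 of 23 multiciliated markers (17.4%). Cox6a1 and Sdhd were chosen after their values were seen and are shown because both belong to the 13 and Cox6a1 holds the letters more than once. Cox6a1, a subunit of cytochrome c oxidase, was at 1196 ± 269 CPM in kidney, against 186 ± 22.8 CPM in lung. Sdhd, which anchors succinate dehydrogenase in the membrane, was at 226 ± 81 and 92.1 ± 3.69 CPM. Capitals mark the matches.
Cox6a1, chr5:115348959-115349208, minus strand: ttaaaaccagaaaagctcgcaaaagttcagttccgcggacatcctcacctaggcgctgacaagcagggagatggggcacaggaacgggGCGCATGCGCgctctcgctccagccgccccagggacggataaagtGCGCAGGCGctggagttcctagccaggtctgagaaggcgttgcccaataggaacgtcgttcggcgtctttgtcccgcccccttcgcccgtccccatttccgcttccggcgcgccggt
Sdhd, chr9:50603850-50604099, minus strand: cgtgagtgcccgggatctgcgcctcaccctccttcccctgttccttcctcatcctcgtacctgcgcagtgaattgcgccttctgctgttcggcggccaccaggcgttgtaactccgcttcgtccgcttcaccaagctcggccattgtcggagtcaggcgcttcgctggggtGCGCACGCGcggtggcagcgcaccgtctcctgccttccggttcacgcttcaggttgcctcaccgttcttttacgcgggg

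Genes of glucose production were higher in kidney in 6 of 7 cases. Pck1, the gene for the cytosolic carboxykinase that commits carbon to glucose, was at 4749, 6444 and 2567 CPM in kidney, against 55, 49.1 and 117 CPM in lung. Glycolysis genes had 10 of 19 higher in kidney (52.6%, against 28.7% of all genes), 1 in lung (5.3%, against 32.4%) and 8 not called. The share called in either direction, 57.9%, was near the 61.2% of all genes. Eno1, an enolase gene of the list, had 17 reads over all 18 libraries together and was not compared. Hk2, an inducible hexokinase, was the member higher in lung, at 32, 22.3 and 50.8 CPM against 3.6, 3.57 and 3.88 CPM. Lung values of Pck1 and Fbp1 were highest in Lung TA 3, the library with the highest liver sum, and the part of liver in them was not tested.

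Gpx3, the glutathione peroxidase that the kidney secretes into plasma, was at 30716, 40246 and 37680 CPM in kidney, against 722, 623 and 741 CPM in lung, a fold of 52.1. Prdx5, a mitochondrial and peroxisomal peroxiredoxin, was at 2874 ± 792 CPM against 160 ± 33.4 CPM. Of 24 cytochrome P450 and flavin oxidases 11 were higher in kidney (45.8%, against 28.7% of all genes) and 8 in lung (33.3%, near the 32.4% of all genes). That list holds only a part of the cytochrome P450 family and did not have the direction of the whole. Of 73 tested genes named Cyp, 29 were higher in lung (39.7%) and 23 in kidney (31.5%), with a median log2 fold change of 0.46. Cyp2f2, the club cell oxidase that activates naphthalene, was at 4321 ± 849 CPM in lung and 11.5 ± 4.13 CPM in kidney. Cyp4b1 was at 220, 583 and 2267 CPM in kidney, against 771, 694 and 737 CPM in lung, so that Kidney TA 3 lay above and the other kidney libraries below the lung range.

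Kidney TA 3, with low Xist, was the highest of the kidney libraries for 10 and the lowest for 5 of the 15 genes of a list known to be sex-biased in mice, Xist among them. It was at least 4-fold above both other libraries for 9, which include the 4 Y-linked genes of the list, and at least 4-fold below both for 3. The sum of the list, 2825 to 3142 CPM, did not set it apart. Slc7a13, an amino acid transporter of the male proximal tubule, was at 1.51, 2.37 and 739 CPM in kidney and at 0.0225, 0.012 and 0 CPM in lung. Akr1c18, a steroid dehydrogenase, was at 414, 222 and 13.3 CPM in kidney, lowest in TA 3. Since each tissue held the same number of libraries with high and with low Xist, the groups were balanced for it, and with the level of Xist as a covariate 10121 genes were called.

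Immediate early genes were higher in lung in 14 of 15 cases, with a median of 1.45. Jun was at 266, 242 and 279 CPM in lung and 26.2, 30.8 and 35.6 CPM in kidney, and Fos at 50.6, 69.6 and 30.1 CPM and 2.43, 1.12 and 5.7 CPM. The lung and kidney libraries did not overlap for either gene. Cell cycle genes had 11 of 22 higher in lung (50%, against 32.4% of all genes), 1 in kidney (4.5%, against 28.7%) and 10 not called. The share called in either direction, 54.5%, was below the 61.2% of all genes. Without Lung TA 2, 7 were higher in lung, which is near the share of all genes. Mki67, a marker of dividing cells, was at 13.8 ± 2.85 CPM in lung and 7.24 ± 1.64 CPM in kidney, and its call was lost without Lung TA 2 (edgeR adjusted p = 0.0634). Of 24 interferon-stimulated genes 7 were higher in lung (29.2%, near the 32.4% of all genes), 1 in kidney and 16 were not called, with 11 and 2 without Lung TA 3.

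Common reference genes were called in 55.6% of cases, a share near the 61.2% of all genes. Gapdh was at 2762, 3394 and 4196 CPM in kidney, against 488, 425 and 564 CPM in lung, a fold of 7.01 (edgeR adjusted p = 4.73e-05). Actb was at 1666, 1930 and 1384 CPM in lung and 900, 795 and 1139 CPM in kidney, with a log2 difference of 0.81 ± 0.24 (edgeR adjusted p = 0.0166). The Actb call was lost without Kidney TA 2, Lung TA 1 or Lung TA 2 (edgeR adjusted p from 0.0549 to 0.0723). Of 18 reference genes 7 were higher in kidney, 3 in lung and 8 were not called, while with library totals alone the counts were 5 and 6. Among abundant transcripts not called, Eef2, an elongation factor of translation, was at 1322 ± 391 CPM in kidney, against 1471 ± 221 CPM in lung. Its log2 fold change was 0.15 ± 0.28 (edgeR adjusted p = 0.649), and a p that misses the threshold does not show that the tissues have the same level.

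The lung and kidney libraries with the Ccne1 transgene (CCNE-TA), from other libraries of the study, gave the same tissue comparison. Of the 5336 genes higher in control lung, 5301 could be tested there, 98.8% had the same sign, 4405 were called the same way and 3 the opposite way. Of the 4727 genes higher in control kidney, 4697 could be tested, 99.7% had the same sign, 3960 were called the same way and 0 the opposite way. Over all tested genes 93.0% had the same sign. The interaction of tissue and genotype was called for 1 of 17006 genes (0.00588%), while 506 had an unadjusted p under 0.05 and DESeq2 called 43. That gene was Psca, a surface antigen of urothelium and other epithelia. It was at 69.2 ± 4.12 CPM in control kidney and 0.131 ± 0.0369 CPM in control lung.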

How the data were processed

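RNA of whole mouse kidney, lung and liver was column-extracted and made into TruSeq v2 libraries, per the labels' protocols, a kit that does not mark strand. The authors deposited raw counts per gene symbol, made with TopHat2 2.0.14, Bowtie2 2.2.6 and featureCounts 1.4.6 on mm10, per the submitters' processing notes. Which annotation was counted, and how multi-mapped reads were treated, is not given in the sources used here. Between 64.7% and 71.2% of counts from 1 to 20 were even numbers, so reads are not independent molecules. Intervals and floors cover counting error only, and the counting intervals take reads as independent and may be too narrow.

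The 6 TA libraries of lung and kidney were taken by their labels. Genes were kept by edgeR's filterByExpr, scaled by TMM and tested with edgeR 4.0.16 (quasi-likelihood, robust) in R 4.3.3, with Benjamini-Hochberg adjustment over all 16444 genes and a threshold of 0.05. SE is that of the log2 fold change. RPKM were computed from the counts with GENCODE exon lengths, and 98.3% of symbols matched that annotation. Promoter windows came from RefSeq, GRCm38.p6. DESeq2 1.42.0, limma 3.58.1 (voom) and other scalings, filters and subsets were alternatives.

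Genes are named by a rule: per direction the 12 largest folds and the 12 highest levels, up to 8 of the highest per list, every Hox, renin-angiotensin and aquaporin gene, members against their list, and abundant genes not called. Cldn16, Ehf, Emx2, Etv5, Eya1, Fos, Hk2, Lhx1, Osr1, Pax2, Pcbd1, Pdpn, Pigr, Sdhd, Tfap2b and subunit relatives (Cox4i2, Cox6a2, Cox6b2, Cox7a2l and Ndufa4l2) fell outside this rule and were chosen after their values were seen. Cox7a1 and Cox8b are in the brown fat list and so within the rule. They were taken up as subunit relatives after the values had been seen. The comparison and the 63 gene lists were chosen with earlier results of these data known. Some genes that the rule names are not reported here.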

Additional observations from a re-analysis of the deposited data

Results flagged for a closer look

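One gene had a tissue difference that differed between the genotypes by a test of the interaction itself. Psca was called at an edgeR adjusted p of 0.000102, with a difference of 6.62 on the log2 scale between the lung minus kidney contrast in CCNE-TA and that in TA libraries. Its reads were 10, 9 and 8 in the Lung TA libraries and 2273, 1783 and 1824 in the Lung CCNE-TA libraries. In kidney they were 1507, 2494 and 1412 in TA and 1594, 2188 and 4077 in CCNE-TA. The log2 fold change of lung minus kidney was -9.07 in TA and -2.46 in CCNE-TA, so that Psca was lower in lung in both. No explanation was tested.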

How the results depend on the processing

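Over 22 alternatives the count of genes called ranged from 8399 with at least 10 counts in every library to 10428 with DESeq2, and it was within 1.5 times of 10063 in all of them. Leaving out 1 library gave 8669 calls (without Lung TA 1) to 10082 (without Lung TA 3). Of the calls, 4297 to 6563 were higher in lung and 3585 to 5588 higher in kidney. The tissue by genotype interaction, called for 1 gene, gave 43 with DESeq2 and 1 to 2 when 1 library was left out.

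The replicate numbers are not said to pair the samples, and the deviations of same-numbered lung and kidney libraries correlated at 0.044, -0.073 and 0.009. With the replicate number as a block 9346 genes were called, 4949 of them higher in lung.

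For the 126 genes named, a call was lost in 36 gene-by-alternative values and gained in 18, and the sign changed in 33, most of them genes not called. With limma-voom the log2 fold change was 0.14 for Cyp4b1 and 0.93 for Pigr. With the replicate block it was 0.16 for Cyp4b1 and 1.05 for Pigr. Scaled by library totals it was 0.15 for Aqp1 and 0.32 for Pigr, and the medians of the cilia and reference lists were 0.016 and 0. Upper quartile scaling gave 0.092 and Xist as a covariate 0.64 for Pigr, and length and GC offsets gave -0.13 for Trpm6. Leaving out 1 library gave -0.51 (Lung TA 3) to 0.054 (Lung TA 2) for Aqp1, -0.97 (Kidney TA 1) to 0.87 (Kidney TA 3) for Cyp4b1, -0.55 (Kidney TA 1) to 2.09 (Kidney TA 3) for Pigr and -0.10 (Kidney TA 1) to 0.32 (Kidney TA 2) for Eef2. In the CCNE-TA libraries it was 0.013 for Csf1r, 0.10 for Cyp4b1 and -0.082 for Trpm6, with a median of -1.07 for the liver list. Cox7a2l, at 0.003, was at -0.032 with DESeq2 and with its size factors, -0.018 in 1 fit of all 18 libraries, -0.008 in thinned libraries, -0.37 in the CCNE-TA libraries and -0.30 (Kidney TA 1) to 0.30 (Kidney TA 2) when 1 library was left out. Cox8b, at -0.033, was at 0.030 with limma-voom, 0.080 with upper quartile scaling, 0.22 by library totals, 0.011 with at least 10 counts in every library, 0.041 with the replicate block, 0.14 with Xist as a covariate, 0.50 with length and GC offsets and -0.35 (Kidney TA 3) to 0.31 (Kidney TA 1) when 1 library was left out. The CCNE-TA libraries and a fit without the squamous genes (10059 calls) were alternatives added after the data had been seen. The cause of each change was not tested.

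Depth limits genes near 3 reads over a group, 0.0378 CPM in kidney and 0.0137 in lung. Genes listed at 0 in every library give no comparison.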

Other observations

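Cell types beyond those of the main lists also differed. All 6 tested mesothelial genes were higher in lung, with a median log2 fold change of 3.72, and Msln, the mesothelin gene of the serosal lining, was at 169, 142 and 106 CPM in lung and 14, 5.87 and 7.22 CPM in kidney. Among lung mesenchyme genes 11 of 16 were higher in lung and 2 in kidney (1 without Lung TA 1 or Lung TA 2), and Pdgfra, the receptor of alveolar fibroblasts, was at 161 ± 63 CPM in lung and 51 ± 11.6 CPM in kidney. Monocyte and dendritic cell genes were higher in lung in 9 of 11 cases and platelet genes in 7 of 9. Without Kidney TA 2 or without Lung TA 1, 4 of the platelet genes were.

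Gene families taken by symbol, chosen after the values had been seen, were also divided. Of 72 tested potassium channel genes 31 were higher in lung (43.1%, against 32.4% of all genes) and 19 in kidney (26.4%, near the 28.7% of all genes). Of 31 integrin genes and genes named after integrins 18 were higher in lung (58.1%, against 32.4% of all genes) and 6 in kidney (19.4%, against 28.7%). Proteasome genes were higher in kidney in 25 of 49 cases (51.0%, against 28.7% of all genes) and in lung in 3 (6.1%, against 32.4%). Of 342 genes named Zfp, zinc finger proteins, 77 were higher in lung (22.5%) and 51 in kidney (14.9%), both below the shares over all genes, 32.4% and 28.7%. Among 3406 symbols no read was listed in any of the 18 libraries.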
